A study of Mus musculus with 16 samples.

Results

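The question addressed here is whether docosahexaenoyl serotonin (DHA5HT, the amide of the n-3 fatty acid docosahexaenoic acid with serotonin) changed transcripts differently in resting and in LPS-treated macrophages. For each gene the interaction was taken as the DHA5HT effect with LPS minus the DHA5HT effect without LPS, that is (LPS+DHA5HT minus LPS) minus (DHA5HT minus control). All 16 of the 16 arrays of the series entered it, chosen by their titles, and it was computed for 18820 genes. RAW264.7 is an established mouse macrophage-like cell line. Cells were kept for 24 h with vehicle (control), with 1 µM DHA5HT, with 1 µg/ml LPS and vehicle, or with 1 µg/ml LPS and 1 µM DHA5HT (LPS+DHA5HT), with 4 arrays in each group. The labels give ethanol at 0.1% by volume as the solvent of the control arrays and name no solvent for the other groups. Nothing in the labels states that the arrays of a group were made from different cultures, so the p-values rest on the variation among these 16 samples, which may be technical, and 4 arrays per group limit the precision. One line at one dose and one time was studied.

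LPS is a component of the outer membrane of Gram-negative bacteria that macrophages sense through TLR4. One branch of that signal acts through NF-kB and raises cytokine genes such as those of IL-12 and IL-23, and another acts through interferon regulatory factors. Macrophages also keep a low interferon-driven programme without a stimulus, in which secreted type I interferon acts on interferon-stimulated genes with antiviral roles.

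All levels below are log2 intensities. Each ± gives the SD of the 4 arrays of a group. The macrophage marker list had a median level of 11.4 in controls, against 3.5 for T, B and NK cell markers, 3.87 for epithelial and 4.3 for fibroblast and endothelial markers. The median level of the 42 measured markers of those other cell types, 3.76, served as the background level, and a gene was marked as at background in a state where both group means of that state were below it. LPS+DHA5HT array 1 has a title that names both agents and a treatment label that names DHA5HT alone. On the first principal component, which held 70.6% of the variance, it lay at 22.69, the other LPS+DHA5HT arrays at 24.49 to 29.49 and the DHA5HT arrays at −33.58 to −30.99. On the second component, with 4.72% of the variance, LPS+DHA5HT array 4 lay at −22.42 and the other arrays at −9.36 to 10.02.

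The DHA5HT effect differed between the states in 62 of 18820 genes, or 0.329% (limma without the replicate number as a block, adjusted p under 0.05). These fell into a pair of patterns of equal size. In 31 genes (0.165% of all genes) the interaction was above 0, and in 25 of them DHA5HT lowered the transcript past the threshold without LPS only. They included 12 of the 30 measured genes of the interferon-stimulated list, such as Irf7, Dhx58 and Ifit1. In the other 31 genes (0.165%) the interaction was below 0, and in 27 of them DHA5HT passed with LPS only. They included the IL-12 and IL-23 subunit genes Il12b and Il23a, the orphan nuclear receptor gene Nr4a3 and a group of small proline-rich protein genes. No called gene passed in both states in opposite directions.

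**Figure D1:**
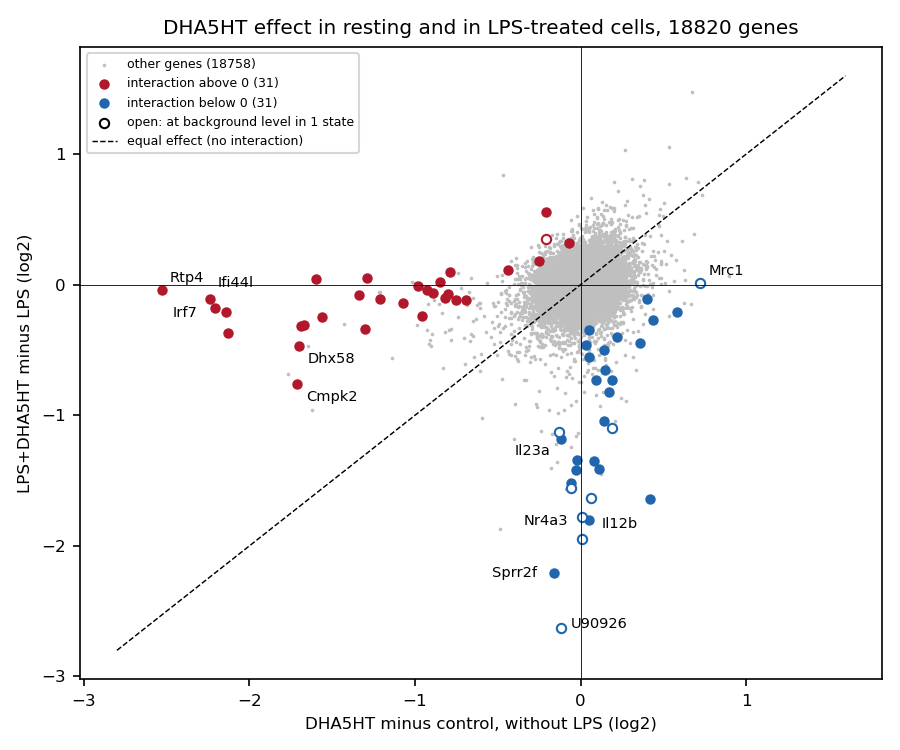
Each point is a gene, with the DHA5HT effect without LPS on the x axis and with LPS on the y axis (both log2), and the dashed line marks equal effects. Most of the 31 genes with an interaction above 0 (red) spread leftward near the horizontal line at 0, with 3 that passed with LPS only lying upward, and most of the 31 with an interaction below 0 (blue) spread downward along the vertical line at 0; open points were at background level in 1 state.

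For comparison, DHA5HT changed 337 genes (1.79%) in LPS-treated cells, 154 higher (0.818%) and 183 lower (0.972%). Without LPS it changed 113 genes (0.6%), 23 higher (0.122%) and 90 lower (0.478%). Only 13 genes passed in both states, all in the same direction in each, and the interaction passed in 2 of these, Dhx58 and Cmpk2 (the latter named after its values were seen). A gene that passes in one state and not in the other is not thereby shown to differ between them: of the 437 genes that passed in either state, the difference itself passed in 61. An unadjusted interaction p under 0.05 was found in 1439 genes (7.65%). With the replicate number of the titles as a block, the interaction passed in 96 genes, 49 above 0 and 47 below, which held 60 of the 62 (all but Ms4a6b and Olfr678, named after their values were seen). In that fit DHA5HT changed 323 genes higher and 324 lower with LPS, and 56 higher and 123 lower without. The count of 62 fell to 34 without LPS array 2, to 35 without DHA5HT array 1, to 37 without LPS array 1 and to 41 without control array 2. It was 56 without LPS+DHA5HT array 1, 43 without LPS+DHA5HT array 4 and 36 without both. Of the 62 genes, 30 passed in each of the 16 fits that left out 1 array, 18 with an interaction above 0 and 12 below.

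Promoter sequences are shown first for the genes above 0, since interferon-stimulated genes are known for a sequence element bound by interferon regulatory factors. The windows came from RefSeq (GRCm38.p6) and ran from 250 bases before to 50 bases after a gene's start. The interferon response element was searched as GAAA, any 2 bases and GAAA again, on both strands. Of the 31 genes, 24 had a window, and 11 of their 28 windows (39.3%), from 9 genes, held the motif. It was in 594 of 18141 windows of all measured genes (3.27%) and in 1 of 30 windows (3.33%) of genes with an interaction below 0. Overlapping windows of Slfn8, named after its values were seen, held the same site, so the 11 are not all independent occurrences. The stretches of 5 of the genes that are described next, in which the match lies before the start, are printed with the motif or its reverse complement in capitals. A match describes these letters and is not a measured binding site.
Ifit1 (chr19:34640773-34640825, plus strand): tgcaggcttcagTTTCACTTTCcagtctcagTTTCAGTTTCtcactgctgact
Gbp7 (chr3:142530271-142530304, plus strand): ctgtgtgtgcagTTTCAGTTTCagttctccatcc
Isg15 (chr4:156200863-156200908, minus strand): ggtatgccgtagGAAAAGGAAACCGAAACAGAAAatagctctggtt
Bst2 (chr8:71537575-71537614, minus strand): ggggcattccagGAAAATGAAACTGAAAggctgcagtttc
Oas3 (chr5:120777713-120777746, minus strand): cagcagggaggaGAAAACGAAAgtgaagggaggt
Ifit1, Isg15 and Bst2 held overlapping or repeated matches, and Gbp7 and Oas3 held 1 each.

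Irf7, which encodes the transcription factor that amplifies type I interferon production, is the clearest example of the pattern above 0. Its values were 8.61, 8.95, 8.70 and 9.37 on the control arrays and 6.43, 6.48, 6.74 and 7.16 on the DHA5HT arrays. With LPS they were 10.70, 10.95, 11.07 and 10.99, and with LPS+DHA5HT 10.47, 10.87, 10.69 and 10.96. All resting DHA5HT arrays lay below all controls, whereas the LPS-treated groups overlapped. DHA5HT thus lowered Irf7 by 2.21 in resting cells, a 4.61-fold difference, and the difference with LPS was −0.18 (adjusted p = 0.717). The interaction was 2.03 (SE 0.24, limma adjusted p = 0.000884).

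Dhx58 encodes LGP2, a cytosolic sensor of viral RNA related to RIG-I. It measured 8.19, 8.70, 8.37 and 8.59 in controls and 6.58, 6.80, 6.71 and 6.97 with DHA5HT. With LPS it measured 9.37, 9.53, 9.38 and 9.48, and with LPS+DHA5HT 8.88, 8.99, 8.87 and 9.16. Here DHA5HT lowered the transcript in both states with no overlap of arrays, by 1.70 without LPS and by 0.47 with LPS (limma adjusted p = 0.0313). The interaction of 1.23 (limma adjusted p = 0.000884) thus came from a smaller fall with LPS.

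Rtp4, an interferon-induced gene for a receptor transporter protein, had the highest interaction, 2.49 (SE 0.31, limma adjusted p = 0.00137). Control arrays gave 7.40, 7.51, 7.50 and 7.94, and DHA5HT arrays 4.60, 5.21, 4.65 and 5.77. LPS arrays gave 8.26, 8.52, 8.13 and 8.46, and LPS+DHA5HT arrays 8.08, 8.37, 7.95 and 8.80. The resting groups were apart and the LPS-treated groups lay across each other. LPS raised Rtp4 1.69-fold from the control level and 9.47-fold from the lower DHA5HT level, to nearly the same height.

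Ifit1, whose product binds viral RNA that lacks host cap methylation, read 5.72, 5.74, 5.80 and 6.13 in controls and 3.93, 4.32, 4.18 and 4.20 with DHA5HT. It read 8.28, 8.73, 8.64 and 8.68 with LPS and 7.88, 8.39, 8.22 and 8.55 with LPS+DHA5HT. Only the resting groups were apart. The interaction was 1.37 (SE 0.19, limma adjusted p = 0.00276) on the log2 scale. On unlogged group means Ifit1 was 58 in controls, 18 with DHA5HT, 386 with LPS and 311 with LPS+DHA5HT, so the difference in intensity units was larger with LPS and the interaction had the opposite sign. The same was true of Gbp7, Isg15 and Cmpk2, the other 3 of the 31 genes above 0 whose sign depends on the scale.

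Oas2, one of the synthases that make the 2-5A messenger which activates RNase L, read 8.24, 8.47, 8.37 and 8.63 in controls and 7.19, 7.32, 6.74 and 7.32 with DHA5HT. It read 8.59, 8.79, 8.73 and 8.66 with LPS and 8.73, 8.71, 8.48 and 9.07 with LPS+DHA5HT. DHA5HT lowered it 2.44-fold at rest, and the LPS-treated groups overlapped (0.05, adjusted p = 0.91). LPS alone did not change Oas2 past the threshold (0.26), and the interaction was 1.34 (limma adjusted p = 0.00228).

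**Figure D2:**
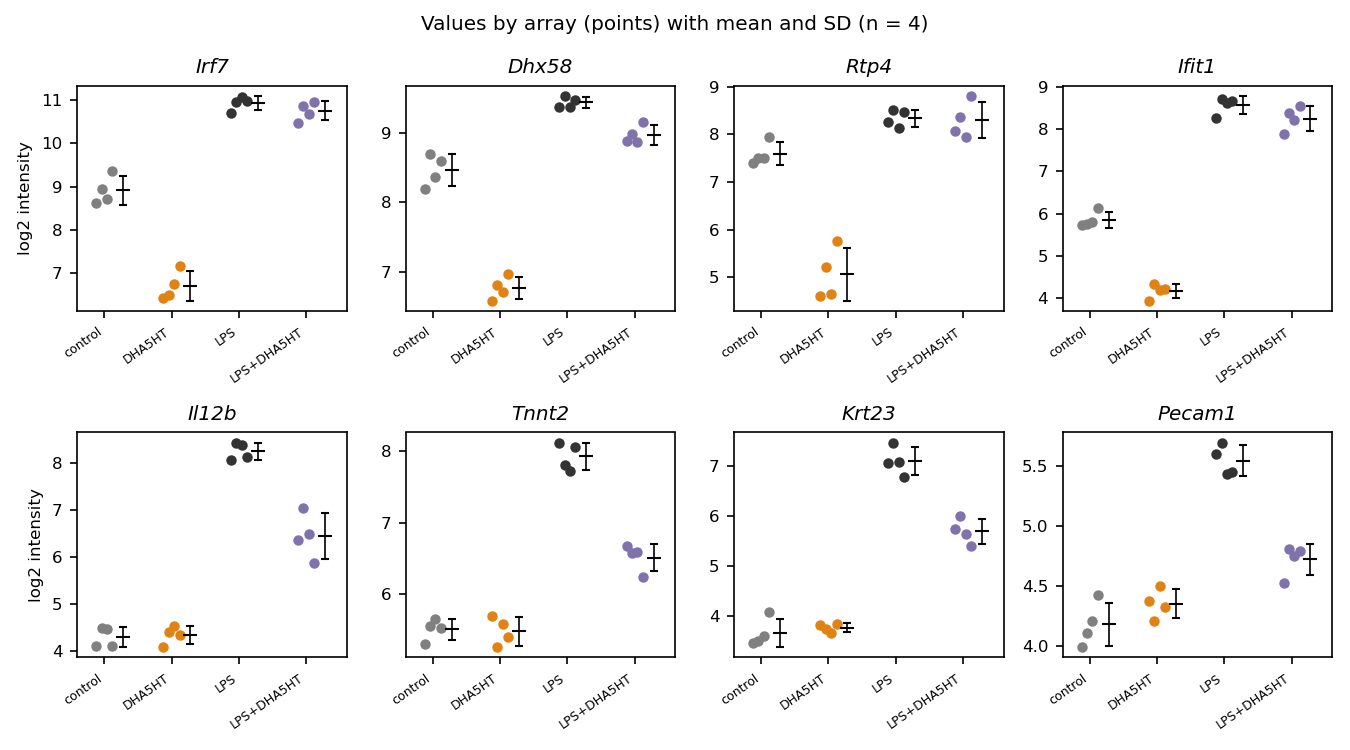
Log2 intensity of 8 genes on each array (points) by group, with the mean and SD (n = 4) beside the points. In the upper row the DHA5HT arrays lie below the controls while the LPS-treated groups lie close together (Dhx58 apart by 0.47), and in the lower row the resting groups lie together while LPS+DHA5HT lies between rest and LPS.

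The other named genes above 0 have related roles. Oasl2 (1.64) and Oas3 (1.26) belong to the oligoadenylate synthetase family, and Ddx58 (1.10) encodes the RNA sensor RIG-I. Isg15 (1.37) encodes a ubiquitin-like modifier and Usp18 (1.76) the protease that removes it. Ifi44l (2.14) and Xaf1 (1.31) are interferon-induced, Bst2 (0.97) encodes tetherin, which holds budding virus at the cell surface, Gbp7 (0.96) a guanylate-binding GTPase and H2-T24 (1.93) an MHC class I-like protein. In all of these DHA5HT lowered the transcript at rest, from a fall of 0.98 in Bst2 to one of 2.24 in Ifi44l, and the differences with LPS lay between −0.37 and 0.04 and did not pass. Each of these calls held in all 16 fits with 1 array left out except that of Usp18, which held in 7. Members of the oligoadenylate synthetase and guanylate-binding families have close copies that an array may not separate fully.

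Over the 31 genes above 0, the median DHA5HT effect was −1.07 without LPS and −0.10 with LPS. The arrays of DHA5HT and control did not overlap in 29 of them, against 1108 of all genes (5.89%). Those of LPS+DHA5HT and LPS did not overlap in 6, against 1484 of all genes (7.89%). As the calls came from these same arrays, separated groups are favoured by the choice of genes. LPS raised 22 of the 31 in the absence of DHA5HT, where it raised 2376 genes in all (12.6%), lowered 1 and did not pass in 8. The LPS response had a median of 0.67 without DHA5HT and 1.77 with it. The interaction equals the difference between these responses, so the choice of genes makes the response with DHA5HT the larger in each. The LPS and control arrays also enter the interaction, so the count raised by LPS is not independent of that choice.

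The interferon-stimulated gene list held 30 measured genes. The interaction passed above 0 in 12 and below 0 in 0, its median was 0.75 against −0.005 over all genes, and 27 of 30 values were above 0. The list was written with earlier results of these data known, so its count describes these genes only. Without LPS DHA5HT lowered 23 of the 30 past the threshold (0.478% of all genes) and with LPS 7 (0.972% of all genes), 6 of them in both states. With the replicate block it lowered 25 without LPS (123 of all genes) and 9 with LPS (324 of all genes). Besides the genes named above, the 12 held Cmpk2 (0.95), a mitochondrial nucleotide kinase, and Irf9 (0.63), an interferon regulatory factor gene, both named after their values were seen. Of the 23 genes lowered at rest, the other 11 did not pass the interaction, 9 of them with an unadjusted p under 0.05. The count of 12 was 17 with the replicate block and ranged from 9 to 17 over the alternative settings.

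Not every member of the list followed the pattern. Gbp5, a guanylate-binding protein of inflammasome activation, named after its values were seen, had an interaction of −0.97 (limma adjusted p = 0.292). It was at background without LPS, with means of 3.44 and 3.27, and DHA5HT lowered it by 1.14 with LPS (limma adjusted p = 0.00858). Mx1 (−0.25) and Irf1 (−0.07), also named after their values were seen, did not pass in any of these comparisons. Ifnb1, the interferon beta gene, likewise named after its values were seen, was at background in both states, with group means from 3.24 to 3.43, so these arrays give no measure of its change.

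**Figure D3:**
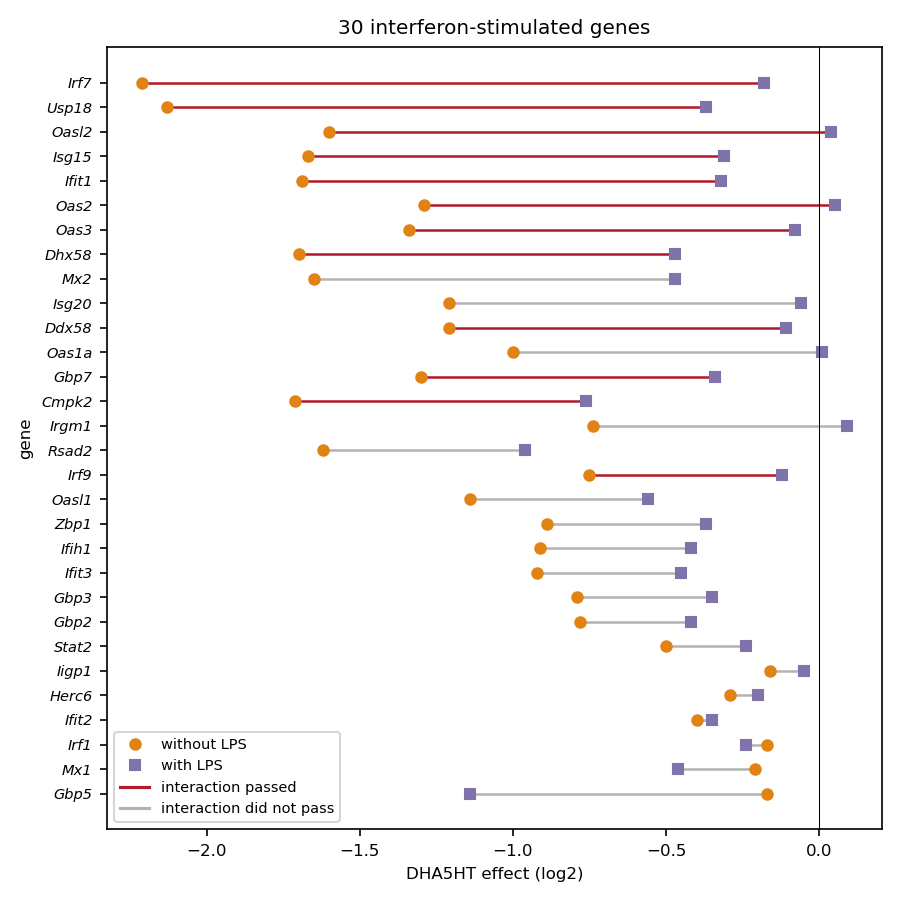
DHA5HT effect (log2, x axis) on 30 interferon-stimulated genes without LPS (circles) and with LPS (squares), ordered by the interaction, with red lines where the interaction passed. In 27 of 30 genes the square lies to the right of the circle, and Gbp5, Mx1 and Irf1 at the bottom run the other way. Among the genes whose interaction passed, Ifit1, Isg15, Gbp7 and Cmpk2 have the opposite sign on unlogged means. Genes that did not pass were not counted for this.

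In the pattern below 0 the transcripts of the cytokine subunits stand out by role. Il12b encodes the p40 chain shared by IL-12 and IL-23. It measured 4.11, 4.50, 4.47 and 4.12 in controls and 4.09, 4.41, 4.54 and 4.34 with DHA5HT. With LPS it measured 8.06, 8.42, 8.39 and 8.13, and with LPS+DHA5HT 6.37, 7.04, 6.50 and 5.87. The resting groups overlapped, and every LPS+DHA5HT array lay below every LPS array. DHA5HT lowered Il12b 3.49-fold with LPS, and the interaction was −1.85 (SE 0.26, limma adjusted p = 0.00228).

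Il23a, which encodes the p19 chain particular to IL-23, was 4.70 ± 0.07 in controls, 4.58 ± 0.09 with DHA5HT, 8.63 ± 0.21 with LPS and 7.45 ± 0.27 with LPS+DHA5HT. It fell by 1.18 with LPS, a 2.26-fold difference, and the resting difference was −0.12 (adjusted p = 0.81). The interaction was −1.06 (SE 0.16, limma adjusted p = 0.00542). Both cytokine calls held in all 16 fits with 1 array left out. Resting levels of both genes lay between the background level and the median gene, at 5.24, which leaves little room for a measurable fall at rest. In the list of IL-23 and IL-12 cytokines and their signalling, the other 11 of 13 measured genes did not pass, nor did any of 13 measured IL-17 cytokine, receptor and adaptor genes (0 with an unadjusted p under 0.05).

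Tnnt2, which encodes cardiac troponin T, had values of 5.31, 5.56, 5.66 and 5.53 in controls and 5.70, 5.26, 5.58 and 5.40 with DHA5HT. It had 8.12, 7.81, 7.73 and 8.06 with LPS and 6.67, 6.57, 6.59 and 6.24 with LPS+DHA5HT. Resting arrays were mixed, and the LPS-treated groups were well apart, with an interaction of −1.39 (limma adjusted p = 0.000884). Its resting means, 5.51 and 5.48, were above that of the median gene.

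Krt23, a keratin gene, read 3.45, 3.50, 3.59 and 4.07 in controls, 3.82, 3.74, 3.65 and 3.84 with DHA5HT, 7.07, 7.47, 7.08 and 6.78 with LPS and 5.73, 5.99, 5.63 and 5.39 with LPS+DHA5HT. Its control mean was below the background level and its DHA5HT mean at it, and only the LPS-treated groups were apart. The interaction was −1.53 (limma adjusted p = 0.00228). The 15 measured epithelial markers held no call, and their mean level per array was 4.06 to 4.20 in LPS+DHA5HT and 4.07 to 4.11 in controls.

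Pecam1, an adhesion molecule of endothelial cells that myeloid cells also carry, read 3.99, 4.11, 4.21 and 4.42 in controls and 4.37, 4.21, 4.50 and 4.32 with DHA5HT. It read 5.60, 5.69, 5.43 and 5.45 with LPS and 4.52, 4.81, 4.75 and 4.79 with LPS+DHA5HT. The groups were apart with LPS only, and the interaction was −0.99 (limma adjusted p = 0.00228). It was the 1 call among 14 measured fibroblast and endothelial markers, whose mean level per array lay between 4.01 and 4.28 over all 16 arrays. AI504432, a transcript without an assigned role, had the smallest p of all genes. It read 3.72, 3.78, 3.61 and 3.57 in controls, 3.92, 3.71, 3.71 and 3.91 with DHA5HT, 4.59, 4.80, 5.03 and 4.79 with LPS and 3.66, 3.90, 3.81 and 3.67 with LPS+DHA5HT. The rise with LPS was thus not seen when DHA5HT was present, with an interaction of −1.18 (limma adjusted p = 0.000772). Its control and LPS+DHA5HT means were below the background level, which limits how far a lower level could show.

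Over the 31 genes below 0 the median DHA5HT effect was −1.10 with LPS and 0.08 without. LPS raised 29 of them, against 2376 of all genes (12.6%). The LPS and control arrays of this response enter the interaction with opposite sign, so the choice of genes favours a high count. On the log2 scale, the LPS response with DHA5HT was a median of 54.5% of that without it among these 29. The values ran from −26.6% for Abca1 to 81.5% for Bcl2a1c (named after its values were seen). As the interaction equals the difference between these responses, the choice of genes makes the response with DHA5HT the smaller in each. Calling the genes on the same arrays also favours low percentages. The 54.5% therefore describes the called genes only and is no separate measure of a reduced LPS response. LPS+DHA5HT and LPS arrays did not overlap in 27 of the 31 (7.89% of all genes), and DHA5HT and control arrays in 6 (5.89% of all genes). The genes were called on these same arrays, which by itself favours separated groups. All 31 kept their sign on unlogged means.

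**Figure D4:**
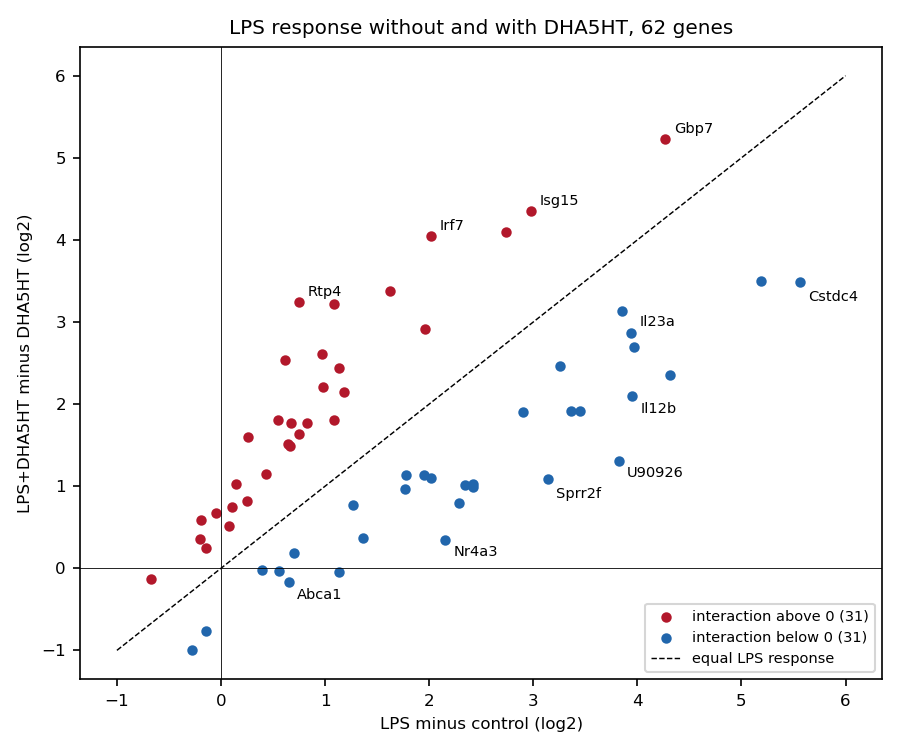
LPS response of the 62 genes (log2) without DHA5HT on the x axis and with DHA5HT on the y axis, with a dashed line of equal response. The 31 genes with an interaction above 0 (red) lie above the line and the 31 below 0 (blue) under it. The sign of the interaction fixes this. The blue genes lie farther right, with a median LPS response of 2.34 against 0.67. The choice of genes favours that shift, since the LPS and control arrays of the x axis enter the interaction with opposite sign.

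Background level bears on the genes below 0 more than on those above. Of the 62 genes 53 were at background in neither state, 8 were at background without LPS and 1 was at background with LPS. Of the 53, 50 had all 4 group means above the level, and AI504432, Krt23 and Sprr2f had 1 or 2 group means below it. Among all genes, 12873 were at background in neither state (0.412% of them called), 315 without LPS (2.54%), 186 with LPS (0.538%) and 5446 in both (0 called). For the 8 genes at background without LPS the resting difference is between values not above background, so only the LPS-treated arrays can carry a measured difference. Of these 8 genes, 7 had an interaction below 0. The other was Olfr678 (0.56), whose mean was below the background level with LPS (3.49) and close to it with LPS+DHA5HT (3.84). Nr4a3, an orphan nuclear receptor of the immediate early class, lay at 2.90 ± 0.09 and 2.91 ± 0.17 at rest, 5.05 ± 0.35 with LPS and 3.27 ± 0.29 with LPS+DHA5HT, back below the background level. With LPS the fall was therefore at least 2.44-fold against the background level (measured difference −1.78), and the fitted interaction of −1.80 (limma adjusted p = 0.000884) is between a measured level and 3 that were not above background. U90926 had the lowest value of all genes, −2.51 (SE 0.32, limma adjusted p = 0.00137), from 3.10 ± 0.19 and 2.98 ± 0.09 at rest, 6.92 ± 0.46 with LPS and 4.29 ± 0.55 with LPS+DHA5HT.

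The small proline-rich proteins and stefins, known as parts of the cornified envelope and as inhibitors of cysteine proteases, made up another group. Their list, written with earlier results of these data known, held 17 measured genes. Of these 4 passed below 0 (0.165% of all genes) and 0 above (0.165%). With the replicate block 5 passed below 0 (47 of all genes), among them Sprr2h, named after its values were seen. Without LPS 9 of the 17 were at background level, counting genes also at background with LPS, against 5761 of 18820 genes. Cstdc4, a stefin gene, was above background in all groups. It had 5.21 ± 0.55 in controls, 5.63 ± 0.41 with DHA5HT, 10.77 ± 0.20 with LPS and 9.13 ± 0.48 with LPS+DHA5HT. Its interaction of −2.07 joins a DHA5HT effect of −1.64 with LPS and one of 0.42 at rest that did not pass (limma adjusted p = 0.648). Its call was lost without LPS array 2. Sprr2f (−2.04), Sprr2e (−1.96) and Sprr2d (−1.69) are neighbouring family members with much alike sequences, which an array may not separate. Sprr2d and Sprr2e were at background without LPS. The call of Sprr2f held in all 16 fits with 1 array left out, that of Sprr2d in 4 and that of Sprr2e in 3.

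The promoter windows of these genes are shown because several of them hold the AP-1 motif TGANTCA, which is bound by FOS and JUN proteins. It was searched on both strands and stands in capitals. It was found in 6 of 30 windows (20%) of genes with an interaction below 0, in 4 of 28 (14.3%) of those above 0 and in 6.74% of all windows.
Sprr2d (chr3:92338935-92338965, plus strand): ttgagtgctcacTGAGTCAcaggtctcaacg
Sprr2e (chr3:92351938-92351968, plus strand): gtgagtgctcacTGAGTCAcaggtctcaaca
Sprr2f (chr3:92364978-92365008, plus strand): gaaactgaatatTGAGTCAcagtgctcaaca
Mmp13 (chr9:7272467-7272497, plus strand): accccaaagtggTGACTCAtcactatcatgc
The 3 Sprr2 windows are those of related genes, so they are not independent occurrences. Windows with the NF-kB motif (GGG, any 5 bases, CC) made up 60.0% below 0, 71.4% above 0 and 59.0% of all. The antioxidant element core TGACNNNGC was in 13.3%, 14.3% and 13.3% of them in the same order. TGACGTCA, the cyclic AMP response element, was in 3.33%, 0% and 2.41%, and the NR4A element AAAGGTCA in 0%, 3.57% and 1.31%.

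The remaining named genes below 0 have varied roles. Mmp13, which encodes collagenase 3 and whose window is printed above, was 9.04 ± 0.49 with LPS and 7.52 ± 0.44 with LPS+DHA5HT (interaction −1.45), and Mmp25, a membrane-anchored matrix metalloproteinase gene, was 6.53 ± 0.14 and 5.88 ± 0.04 (−0.79). Acpp, an acid phosphatase gene (−1.43), Tnn, the tenascin N gene (−1.33), Csn1s1, a casein gene (−1.50), and Heatr9 (−1.28) also passed, the last pair from a resting level at background. Csn1s1 was also below it with LPS+DHA5HT, at 3.55 ± 0.30, so its fall with LPS was at least 2.53-fold. Abca1, the cholesterol exporter, was 7.73 ± 0.13 in controls, 8.38 ± 0.13 with LPS and 7.65 ± 0.26 with LPS+DHA5HT (−0.82). Bcl2, which protects from apoptosis, and Bbc3, which encodes the pro-apoptotic PUMA, both fell with DHA5HT in LPS-treated cells, with interactions of −0.62 and −0.59. For Bcl2 the DHA5HT effect was −0.40 with LPS and 0.22 at rest. The resting arrays did not overlap, but that rise did not pass (limma adjusted p = 0.357). The calls of Acpp and Csn1s1 held in all 16 fits with 1 array left out, that of Heatr9 was lost without DHA5HT array 1 and without LPS array 2, and those of the other 6 held in 2 to 11.

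Mrc1, the mannose receptor and a marker of alternatively activated macrophages, is 1 of 4 genes below 0 in which DHA5HT raised the transcript at rest and did not pass with LPS. The others, named after their values were seen, were Bcl2a1c (0.44 at rest), Ms4a6d (0.58) and Tle3 (0.40). Mrc1 went from 3.40 ± 0.25, below the background level, to 4.13 ± 0.06, at least 1.29-fold higher (limma adjusted p = 0.00072). With LPS it was at background, at 3.12 ± 0.09 and 3.13 ± 0.13. The interaction of −0.72 (limma adjusted p = 0.0349) was thus set by resting arrays that were themselves near background, and the call held in 3 of 16 fits with 1 array left out.

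Several cytokine and stress genes that macrophage studies commonly report did not pass the interaction in the fit without a block. Csf3, which encodes the growth factor G-CSF, had −1.57 (95% interval −2.27 to −0.88, limma adjusted p = 0.0544, and 0.0134 with the replicate block, where it passed) and Nr4a1, the relative of Nr4a3, −1.38 (−2.03 to −0.74, adjusted p = 0.0745). Cxcl10, an interferon-induced chemokine gene, had 1.08 (0.53 to 1.64, adjusted p = 0.135), with a fall at rest of 1.77. Il6 had −0.58 (−0.89 to −0.27, adjusted p = 0.152), Il1b −0.56 (−0.98 to −0.13, adjusted p = 0.481) and Ptgs2, the cyclooxygenase-2 gene, 0.77 (0.30 to 1.24, adjusted p = 0.257). These intervals are unadjusted and exclude 0, so the data neither call nor bound these interactions near 0. On unlogged group means the interaction had the opposite sign for Cxcl10 and Ptgs2, and for Tnf and Ccl2, which are given next. Ptgs2 stood at 13.05 ± 0.07 with LPS, close to the highest value in the table, 13.68.

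For Tnf the interaction was 0.02 (−0.26 to 0.29, adjusted p = 0.991), for Ccl2 0.22 (−0.10 to 0.53, adjusted p = 0.798) and for Nos2, inducible nitric oxide synthase, −0.42 (−1.18 to 0.33, adjusted p = 0.847). The Tnf interval allows a change of less than 0.3 either way, while that of Nos2 is wide enough to hold a more than 2-fold difference. DHA5HT lowered Nos2 by 1.02 with LPS (limma adjusted p = 0.0485), which the interaction does not tell apart from its resting difference of −0.60. The call in LPS-treated cells is therefore no sign of an effect particular to that state. Over the lists, 0 of 19 pro-inflammatory cytokine genes passed (11 with an unadjusted p under 0.05), 0 of 24 chemokine genes (8) and 0 of 23 NF-kB subunit and feedback genes (5), where 7.65% of all genes had such an unadjusted p. With the replicate block 3 of the 19 passed, Csf3 and, named after their values were seen, Inhba and Tnfsf10, and 0 of the other lists.

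**Figure D5:**
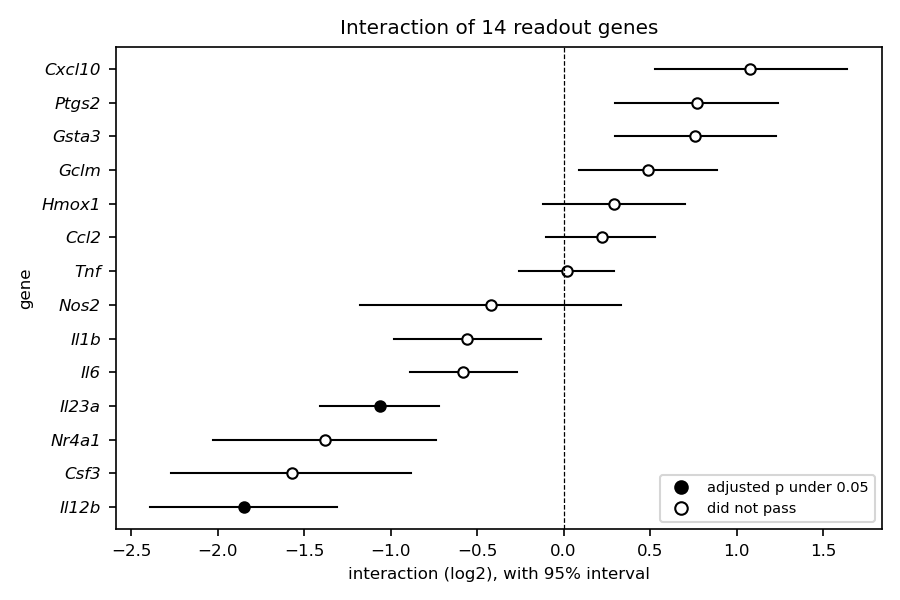
Interaction (log2, points) with its unadjusted 95% interval (lines) for 14 cytokine, chemokine, enzyme and stress genes, filled where the adjusted p was under 0.05. Il12b and Il23a are filled, and the intervals of Csf3, Nr4a1, Il6 and Il1b lie below 0 and those of Cxcl10, Ptgs2, Gsta3 and Gclm above 0 without passing.

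Targets of NRF2, the transcription factor of the antioxidant response, are a case where calls in one state do not carry over to the interaction. DHA5HT raised 14 of 24 measured target genes with LPS, where it raised 0.818% of all genes, and 0 without, where it raised 0.122%. With the replicate block it raised 14 with LPS (323 of all genes) and 1 without (56 of all genes). The interaction passed in 0 of 24 by limma, with and without the replicate block, with 10 at an unadjusted p under 0.05 (7.65% of all genes) and a smallest adjusted p of 0.257 without the block. Its median was 0.19, and 22 of 24 values were above 0. Gsta3, a glutathione transferase gene, had 0.76 (0.30 to 1.23, adjusted p = 0.257), Gclm, the modifier subunit of glutathione synthesis, 0.49 (0.09 to 0.89, adjusted p = 0.531), and Hmox1, the heme oxygenase gene, 0.29 (−0.12 to 0.70, adjusted p = 0.791). An LPS-dependent effect on these genes was therefore not established at this number of arrays, and it was not bounded near 0 either.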

How the data were processed

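The authors deposited log2 values from RMA, per the submitters' processing notes; the RMA version, array annotation and any filter were not given in the sources used here. Per the labels' protocols 100 ng of RNA with an integrity number above 8 was used. Of 35556 probe sets on 16 arrays, 21218 named 1 gene in the platform's gene table, 1881 several and 12457 were not listed; for the 1386 genes with several probe sets the brightest was used. Symbols were updated through RefSeq (GRCm38.p6; 18790 of 18820 genes matched). The files name no build. limma 3.58.1 (R 4.3.3, lmFit and eBayes) fitted 4 group means (12 residual degrees of freedom, two-sided, Benjamini-Hochberg over 18820 genes, threshold 0.05) and was tested on simulated data. Arrays followed their titles. In both DHA5HT comparisons that form the interaction, all 8 same-numbered pairs of arrays correlated above 0.1 (0.116 to 0.205, deviations from group means). In the same comparisons different-numbered pairs ran from −0.154 to 0.127, and over all pairs of groups from −0.203 to 0.165. In 42 of 48 matches of an array to another group, the closest array was that of its own number. A pairing by title number rests on these data, not on the labels, and the main fit does not use it. Values in the text are from the fit without a block unless the replicate block is named. Blocked values are given for some genes and lists, not for every call that the block changes. The rule named the 15 highest and 15 lowest called genes with non-overlapping arrays, up to 4 per list and 14 readout genes; values by array are given for 10. Members, lists and rule were chosen with earlier results of these data known. Alternatives are in the closing section. Probe sets naming several genes or none, and promoters on chromosome 18, were not analysed here. Figures used matplotlib 3.10.9.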

Additional observations from a re-analysis of the deposited data

Results flagged for a closer look

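The DHA5HT effect differed between LPS-treated and resting cells in 62 genes by the interaction test of limma, as described above. A single array stood away from the other 3 of its group in 6 of 196 groups of named genes, where chance flags about 1 in 20. These were control array 4 for H2-T24 (7.67, others 7.0 to 7.1) and for Ifi44l (7.46, others 6.87 to 6.96), control array 2 for Heatr9 (3.17, others 3.40 to 3.42), LPS array 1 for Mrc1 (3.26, others 3.06 to 3.09), DHA5HT array 4 for Nr4a1 (5.01, others 4.48 to 4.49) and LPS array 2 for Tnf (12.17, others 11.82 to 11.88). Outside the main measurement, among 14338 probe sets with several genes or none, 2 passed the interaction, one at 2.00 and one at −0.80, and both are left unnamed.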

How the results depend on the processing

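Across alternatives other than leaving out 1 array, the 49 named genes gave 430 values: 407 kept their direction and side of the threshold, 17 lost and 6 gained a call, and 0 reversed. The count of called genes was 62 (31 above 0, 31 below). With the replicate block it was 96 (49 above, 47 below), sharing 60 of the 62; among the 49 named genes the block changed only the call of Csf3. Over all 6 pairs of groups 19 of 24 same-numbered pairs correlated above 0.1. All probe sets and a threshold of 0.01 each gave 28 (16 above, 12 below), and the intensity trend 51 above. Leaving out LPS+DHA5HT arrays 1 and 4 together, chosen after seeing the data, gave 36 (14 below). Leaving out 1 array gave 34 to 62 called, 18 to 33 above and 13 to 40 below, and Tnf ranged from −0.05 to 0.10, reversing in 6 fits. Called genes at background without LPS numbered 8, and 14 with the level at the 75th percentile of the markers. The cause of these moves was not tested, except that a stricter threshold and more tests call fewer genes. Signal near background and the 4 arrays per group limit what can be called.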
